A study of Mus musculus with 12 samples.

Results

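Interferon-stimulated genes were examined in mouse embryonic fibroblasts given an inhibitor of histone acetyltransferases or its inactive control. The 34 genes were chosen by name, as known targets of interferon, with earlier results of these data known. They are 34 of the 27179 genes in the count table. All 34 had a row, 28 passed the filter on low counts and were tested, and 6 did not. Such fibroblasts are primary connective-tissue cells, here isolated at E13.5 from wild-type C57BL/6 mice and cultured in 3% oxygen. The compound WM-8014, which the labels call a MYST acetyltransferase inhibitor, was given at 10 µM, and WM-2474, its inactive control, at the same dose. Treatment ran for 96 or 240 h. The 4 groups hold 3 libraries each, from cultures numbered 5, 6 and 7, for 12 in all. No group was left without compound, and the labels name no interferon or virus. The libraries are labelled female, but Y-linked Ddx3y stood at a depth-scaled read count (CPM) of 96.3 to 123.9 and Xist at 0 to 4 reads in all 12.

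Interferons are secreted proteins that put cells into an antiviral state. Sensors of foreign or misplaced nucleic acid, such as the products of Ddx58 (RIG-I) and Ifih1 (MDA5), switch on interferon genes through the factors IRF3 and IRF7. Secreted type I interferon then acts through the receptor chains IFNAR1 and IFNAR2 and the kinases JAK1 and TYK2, and a complex that contains STAT2 and IRF9 binds the interferon-stimulated response element (ISRE) in target promoters. Interferon gamma uses another receptor and acts through the gamma-activated site (GAS). Several products of the response, among them IRF7, IRF9, STAT2 and the sensors, are themselves parts of the pathway, so that it feeds back on itself. Fibroblasts respond to interferon and also keep some of these genes at a low level without any added interferon.

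The start regions of the genes were searched for the core of each element in RefSeq promoter windows of assembly GRCm38.p6, the coordinate system of mm10, from 250 bases before to 50 bases after a start. Of the 34 genes, 26 had a window. The ISRE core was taken as GAAA and GAAA with any 2 bases between them, or TTTC and TTTC on the other strand, and overlapping copies were counted. It was present in 15 of the 26 genes (57.7%), against 3.99% of all 27025 genes with a window. The GAS core, TTCNNNGAA, which reads the same on either strand, was present in 8 of the 26 (30.8%), against 9.55% of all genes. In Ddx58, Ifih1 and Ifitm3 the ISRE cores lay only after the start, and Irf1, Irf7, Irf9, Ifit2, Oasl2 and Cmpk2 had none in their windows. A match describes the letters in the window and is not evidence of binding. The stretches that follow are all upstream of the start and read 5′ to 3′ along the gene, and capitals mark the ISRE cores. Except for Ifit3 and Ifit3b, they belong to members with a core before the start that rose or fell in at least 1 comparison below. Ifit3 and Ifit3b did so in no main test and are shown as a pair that shares sequence. Because a core was required, the stretches do not represent all members that rose or fell.
Gbp2: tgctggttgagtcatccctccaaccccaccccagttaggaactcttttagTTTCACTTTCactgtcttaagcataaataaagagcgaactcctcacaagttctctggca
Gbp3: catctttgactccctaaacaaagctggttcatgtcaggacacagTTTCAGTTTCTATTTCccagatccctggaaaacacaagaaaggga
Gbp7: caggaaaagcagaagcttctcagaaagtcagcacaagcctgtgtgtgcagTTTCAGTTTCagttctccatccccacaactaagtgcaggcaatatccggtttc
Ifit3: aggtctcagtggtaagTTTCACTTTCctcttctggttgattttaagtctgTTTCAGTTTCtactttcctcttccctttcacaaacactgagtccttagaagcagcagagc
Ifit3b: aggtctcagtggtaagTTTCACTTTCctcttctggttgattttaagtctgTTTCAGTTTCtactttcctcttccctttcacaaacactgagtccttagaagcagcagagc
Isg15: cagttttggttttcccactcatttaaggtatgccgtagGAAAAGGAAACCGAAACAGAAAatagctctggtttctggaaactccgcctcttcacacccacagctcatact
Rsad2: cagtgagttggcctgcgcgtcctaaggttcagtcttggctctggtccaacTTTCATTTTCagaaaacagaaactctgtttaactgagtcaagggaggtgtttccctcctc
Stat2: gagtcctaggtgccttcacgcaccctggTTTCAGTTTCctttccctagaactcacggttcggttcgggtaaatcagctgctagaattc
Bst2: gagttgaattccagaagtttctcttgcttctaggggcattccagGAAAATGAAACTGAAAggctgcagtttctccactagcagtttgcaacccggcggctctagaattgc
The guanylate-binding protein genes lie in a cluster on chromosome 3 and had their nearest core 49 (Gbp2), 29 (Gbp3) and 43 (Gbp7) bases before the start: Gbp2 at chr3:142620554-142620662, plus strand, Gbp3 at chr3:142559955-142560043, plus strand, and Gbp7 at chr3:142530233-142530335, plus strand. Ifit3 (chr19:34583357-34583466, plus strand) and its neighbour Ifit3b (chr19:34607753-34607862, plus strand) were identical over all 110 bases shown, with 2 cores each. Isg15 (chr4:156200825-156200934, minus strand) had a run of 3 overlapping cores and Bst2 (chr8:71537537-71537646, minus strand) a run of 2. Rsad2 (chr12:26456513-26456622, minus strand) and Stat2 (chr10:128270248-128270335, plus strand) had 1 core each.

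Sequencing depth was 10147466 to 45903190 reads per library. CPM values here use the library's total after TMM adjustment, and a level per length (RPKM) is that value per kilobase of gene length. Log2 fold changes and their standard errors (SE) come from edgeR, and a gene is said to have risen or fallen where its Benjamini-Hochberg adjusted p over 14136 genes tested was under 0.05. Cultures 6 and 7 with WM-2474 at 96 h differed from the other 10 libraries in a few genes, such as Misp3, which had 0.724 and 0.943 CPM in them and 79.9 to 285.3 CPM in the rest, so calls between the compounds that were lost without these libraries are given with and without them. Markers of fibroblasts summed to 23250 to 40030 CPM across the 12 libraries. Of 13 leukocyte and macrophage markers 3 were high enough to test, and the defining markers Ptprc and Tyrobp had at most 7 and 1 reads in any library. Their summed level was 7.60 to 8.45 CPM with WM-2474 and 10.6 to 13.0 CPM with WM-8014 at 96 h, and 5.15 to 6.65 against 9.81 to 11.3 CPM at 240 h. Lyz2, a lysozyme of macrophages, was higher with WM-8014 at 96 h (log2 fold change 0.61, adjusted p = 0.0482, and 0.194 without the pair of libraries just named) and at 240 h (1.48, adjusted p = 0.000115), and Csf1r, a macrophage growth factor receptor, at 240 h (1.27, adjusted p = 1.51e-05). The part of such cells in the results that follow was not tested, and in bulk RNA fewer cells with a transcript and less transcript per cell cannot be told apart.

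Transcripts of the interferons themselves were scarce. None of 21 interferon genes passed the filter, and Ifnb1, the type I interferon that fibroblasts make first, had 0 reads in every library. A count of 0 allows up to 3 reads, which is 0.0614 to 0.303 CPM over the 12 libraries and covers counting error only. Ifnz, an interferon zeta gene, had 66 reads in all, 1 to 14 per library and at most 0.449 CPM. The receptor and signalling genes were present: the mean level per length was 15.3 RPKM for Ifnar1, 12.9 for Ifnar2, 65.5 for Jak1 and 20.2 for Irf3.

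Most of the interferon-stimulated genes were weakly expressed. The median level of the 28 tested members was 1.09 RPKM, against 8.71 RPKM over all genes tested. Ifitm3, a membrane protein that blocks the entry of viruses, stood far above the rest at 248.8 RPKM. Stat2 (11.9 RPKM), Bst2, which encodes the virus-retaining protein tetherin (11.8 RPKM), Ifi35 (11.0 RPKM) and Irf9 (9.93 RPKM) followed within a narrow range. Group means of these 4 genes overlapped in range, at 8.42 to 15.35 RPKM for Stat2 and 10.0 to 13.4 RPKM for Bst2, and their order was not tested. Ifit2 (7.92 RPKM), Ddx58 (6.40 RPKM) and Irf1 (4.89 RPKM) formed the middle, and from Xaf1 (0.985 RPKM) downward every member was under 1 RPKM. The classic antiviral effectors were among the lowest. Oas1a, Oas2, Oas3 and Oasl1, of the family that makes the activator of RNase L, had 25, 41, 23 and 51 reads in all 12 libraries together, and the GTPases Mx1 and Mx2 had 21 and 67. These are the 6 members below the filter, and no fold change is given for them.

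At the median, single cultures differed more in these genes than in all genes tested. The median within-group standard deviation of log2 CPM was 0.32 over the tested members and 0.095 over all genes tested. The sets were not matched for level, at medians of 1.09 and 8.71 RPKM, and the part of counting error in this difference was not tested. Among the members this standard deviation ran from 0.073 for Ifitm3, the most abundant, to 0.85 for Ifit1. Ifit1, which encodes a protein that binds viral RNA ends, varied most. At 96 h it stood at 2.69, 2.97 and 1.64 CPM in WM-2474 cultures 5, 6 and 7 and at 5.57, 1.36 and 2.91 CPM with WM-8014. At 240 h the values were 3.59, 0.667 and 0.891 CPM with WM-2474 and 1.31, 0.795 and 0.577 CPM with WM-8014. The groups overlapped at each time, and the spread within a group was as wide as the difference between groups. Members moved together from culture to culture: deviations of log2 CPM from the group mean had a median correlation of 0.41 over 378 pairs of members, against -0.00019 over all pairs of tested genes. Each correlation is over 12 libraries that share their group means and is given as a description. Isg20, an RNA exonuclease, ran against the others, with a median correlation of -0.62.

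**Figure D1:**
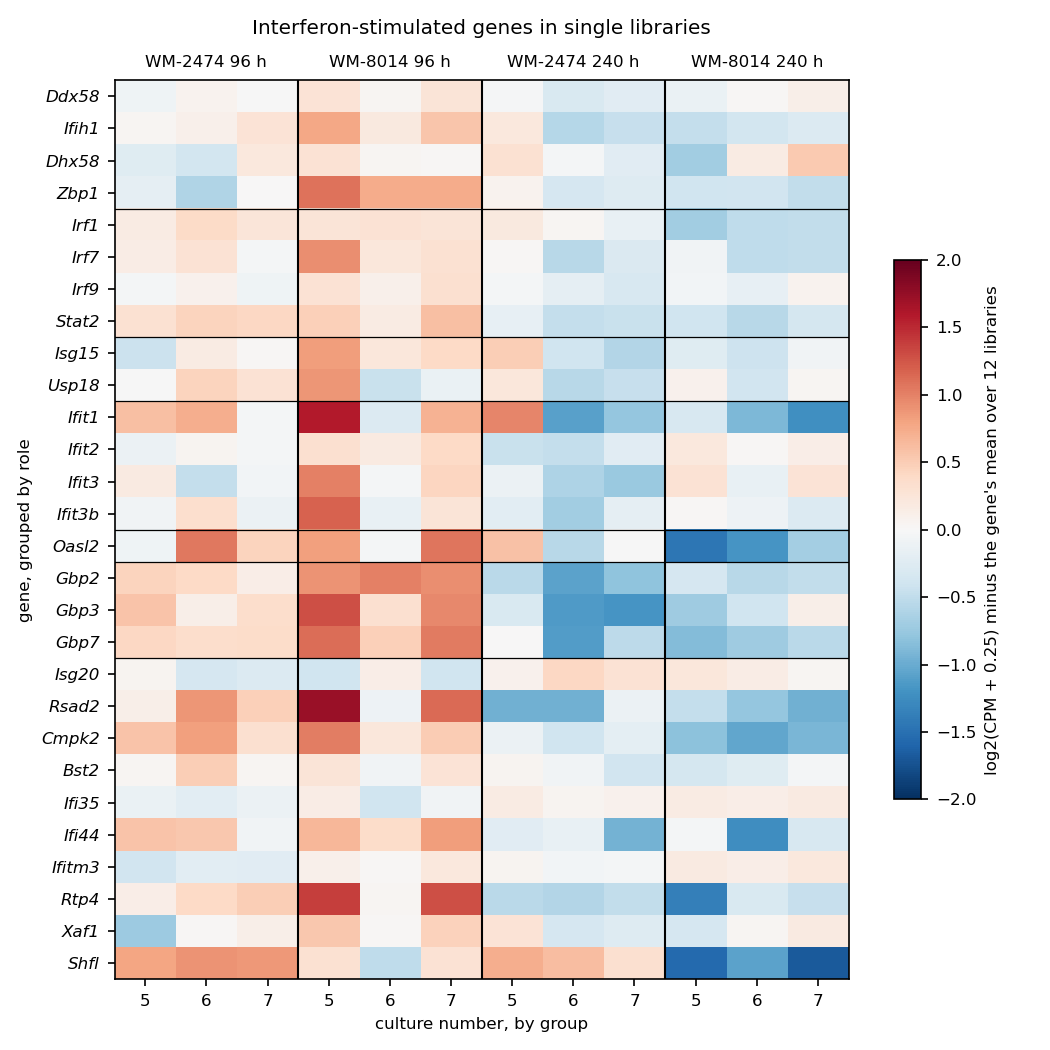
Log2(CPM + 0.25) of the 28 tested members in each library, as the difference from the gene's own mean over 12 libraries (colour, red higher), with genes in rows by role and cultures 5, 6 and 7 in columns by group. Most rows are reddest in WM-8014 96 h cultures 5 and 7 and bluest at 240 h, and culture 6 of the WM-8014 96 h group is paler than its 2 companions.

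Which culture was high changed from group to group. In the WM-8014 96 h group culture 5 was the highest of the 3 in 18 of 28 members, and culture 6 was the lowest in 23. With WM-2474 at 96 h culture 6 was the highest in 16 members. With WM-2474 at 240 h culture 5 was the highest in 22, and with WM-8014 at 240 h culture 7 was the highest in 14 and culture 5 in 11. Over all genes tested, a given culture was the highest in 28.3 to 37.1% of genes in any group. The mean deviation of the 28 members from their 12-library means was 0.80 log2 units in WM-8014 96 h culture 5, 0.13 in culture 6 and 0.56 in culture 7. It was 0.13, 0.29 and 0.18 in the WM-2474 96 h cultures 5, 6 and 7. At 240 h it was 0.019, -0.47 and -0.37 with WM-2474 and -0.44, -0.48 and -0.34 with WM-8014. Culture 6 with WM-8014 at 96 h lay inside the range of the control cultures, while cultures 5 and 7 lay above it, and at 240 h only culture 5 with WM-2474 was near the 12-library mean. Across all genes the same-numbered libraries of the 2 compounds at 96 h deviated together (correlations of 0.14, 0.15 and 0.16), but over the 28 members the same correlations were -0.18, -0.43 and -0.016.

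**Figure D2:**
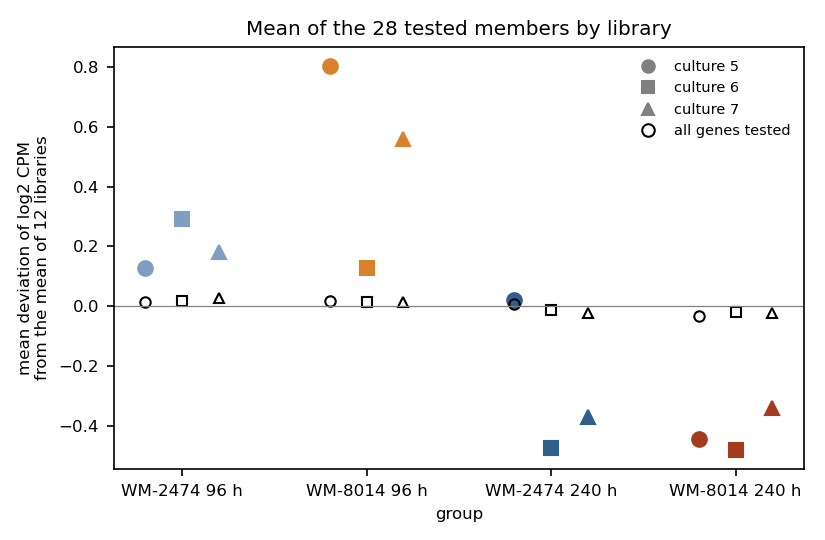
Mean over the 28 tested members of the deviation of log2 CPM from each gene's mean over 12 libraries (filled points, y axis), by group (x axis) and culture (shape), with the same mean over all genes tested (open points). Members range from -0.48 in WM-8014 240 h culture 6 to 0.80 in WM-8014 96 h culture 5, while the open points stay near 0.

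The comparison of WM-8014 with WM-2474 at 96 h sets the inhibitor against its inactive control at the same dose. A small set of interferon-stimulated genes rose: Zbp1 by 2.8-fold on few reads, and Irf9, Ifit2, Gbp2 and Ifitm3 by smaller amounts. Shfl, which encodes an inhibitor of viral frameshifting, fell. These are 5 of 28 members higher and 1 lower, where 10.9% of all genes tested rose and 11.8% fell. Of the 28 members, 25 had a positive log2 fold change, against 7068 of the 14136 genes tested. The median was 0.37, against 6.3e-05 over all genes. An unadjusted p under 0.05 was reached by 13 members and by 4915 of the 14136 genes. In the same-numbered cultures, 26 of 28 members were higher with WM-8014 in culture 5 (median difference 0.65 log2 units). The number was 12 in culture 6 (median -0.050) and 24 in culture 7 (median 0.41). Of all genes 49.7, 49.3 and 49.5% were higher in cultures 5, 6 and 7. All 3 cultures were higher with WM-8014 for 10 of 28 members and lower for 1, against 26.6 and 27.6% of all genes. The members' median did not have the same sign in the 3 cultures. The count depended on single libraries. Without WM-8014 96 h culture 6, where 1303 of 14551 genes rose and 1333 fell, 13 of 30 tested members were higher and 0 lower. Without culture 6 in every group, where 1025 of 14220 genes rose and 1098 fell, 12 of 29 members were higher and 0 lower. Without WM-2474 96 h cultures 6 and 7 together there were 2 higher and 0 lower.

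Among the sensors, Zbp1, whose product binds Z-form nucleic acid and can trigger cell death, had the largest fold change at 96 h and the weakest read support. It stood at 0.279, 0.145 and 0.348 CPM in WM-2474 cultures 5, 6 and 7 (3, 2 and 17 reads) and at 1.02, 0.750 and 0.744 CPM with WM-8014 (15, 11 and 11 reads). The groups did not overlap, and the log2 fold change was 1.49 (SE 0.37, adjusted p = 0.00594), or 2.8-fold. The call was lost with DESeq2 (adjusted p = 0.051), without culture 5 in every group (0.0765) and without WM-2474 96 h cultures 6 and 7 together (0.206). Ddx58, the RNA sensor RIG-I, did not pass: it stood at 29.7, 32.9 and 31.1 CPM with WM-2474 and, with WM-8014, 38.0, 32.1 and 37.6 CPM (log2 fold change 0.20, SE 0.079, adjusted p = 0.0749). Its value in WM-8014 culture 6 lay among the controls, and without that library the adjusted p was 0.0209, as it was 0.0411 without WM-2474 240 h culture 5. Ifih1 and Dhx58, the other RNA helicases of this group, had log2 fold changes of 0.36 and 0.14 and did not pass.

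Of the transcription factors, Irf9, the DNA-binding part of the STAT complex, rose slightly. It went from 25.9, 28.2 and 24.9 CPM to 32.5, 28.3 and 33.1 CPM (log2 fold change 0.26, SE 0.082, adjusted p = 0.0252). WM-8014 culture 6 lay barely above WM-2474 culture 6, the highest control, so the groups only just separate. The Irf9 call was lost in 9 of 22 alternatives, among them DESeq2 (adjusted p = 0.0525), thinning to equal depth (0.364), the fit without WM-2474 96 h cultures 6 and 7 together (0.245), and leaving out the 96 h library of culture 5 or 7 of WM-2474 (0.0568 and 0.173) or of WM-8014 (0.0993 and 0.11). Irf7, the main amplifier of type I interferon, was at 4.64, 5.14 and 4.02 CPM against 8.15, 4.91 and 5.21 CPM, and its log2 fold change of 0.45 did not pass (adjusted p = 0.0949). WM-8014 culture 5 stood above the other 5 libraries, and without it the log2 fold change was 0.19 (adjusted p = 0.557), while without WM-8014 culture 6 the adjusted p was 0.0492. Irf1 and Stat2 had log2 fold changes of 0.0012 (95% interval -0.18 to 0.18) and 0.029 (-0.23 to 0.29).

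In the IFIT family, Ifit2, which encodes an RNA-binding antiviral protein, rose from 28.4, 31.9 and 29.9 CPM to 38.5, 34.7 and 40.5 CPM. Every WM-8014 culture lay above every control, and the log2 fold change was 0.33 (SE 0.073, adjusted p = 0.00228). Without culture 7 in every group the adjusted p was 0.0534. Ifit3, a partner of IFIT1 in RNA binding, was at 4.27, 2.61 and 3.57 CPM against 7.74, 3.62 and 5.14 CPM. It was higher in each same-numbered culture, though the groups overlapped, and it did not pass (log2 fold change 0.66, SE 0.26, adjusted p = 0.0819). With culture number as a replicate block it did (0.00456), as it did without WM-8014 96 h culture 6 (0.0102). Its near copy Ifit3b had a log2 fold change of 0.62 (adjusted p = 0.17). Of the 50-base words in the exons of Ifit3, 51.2% also occur in Ifit3b in the GENCODE M21 annotation, so reads could not always be assigned between the 2 genes and their separate values are uncertain.

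Of the 3 guanylate-binding proteins, GTPases that attack the membranes around intracellular pathogens, 1 rose at 96 h. Gbp2 was at 7.98, 7.67 and 6.33 CPM with WM-2474 and at 10.9, 11.9 and 11.2 CPM with WM-8014. All 3 WM-8014 cultures, culture 6 included, lay above all 3 controls, and the log2 fold change was 0.68 (SE 0.12, adjusted p = 0.000419), or 1.6-fold. Without WM-2474 96 h cultures 6 and 7 together the adjusted p was 0.128. Gbp3, from 1.58, 1.09 and 1.33 to 2.79, 1.30 and 2.16 CPM, and Gbp7, from 2.79, 2.68 and 2.68 to 4.69, 2.93 and 4.46 CPM, had log2 fold changes of 0.65 (adjusted p = 0.116) and 0.57 (adjusted p = 0.0634). In both genes WM-8014 culture 6 lay at or next to the control level, and without it the adjusted p was 0.0377 for Gbp3 and 0.0234 for Gbp7. With the replicate block Gbp7 passed (adjusted p = 0.026), and it also passed without WM-2474 240 h culture 5 (0.0356) or 6 (0.0388). Gbp7 shares 12.7% of its 50-base words with other genes, 10.5% with the overlapping gene model Gm43802.

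Ifitm3, the most abundant member, rose from 123.1, 137.7 and 136.1 CPM to 171.2, 163.2 and 185 CPM. The groups were well separated, at 1.3-fold (log2 fold change 0.38, SE 0.049, adjusted p = 1.57e-05), and this was the only one of the 6 calls at 96 h that held in all alternatives run. Shfl went the other way, from 3.06, 3.33 and 3.24 CPM to 2.11, 1.09 and 2.10 CPM. Every WM-8014 culture was below every control (log2 fold change -0.87, SE 0.22, adjusted p = 0.00753). Shfl lost its call when thinned to equal depth (adjusted p = 0.374), without culture 6 in every group (0.0999), without WM-8014 96 h culture 6 (0.058) and without WM-2474 96 h cultures 6 and 7 together (0.239). Isg15, a ubiquitin-like protein that is attached to other proteins, and Usp18, the protease that removes it, had log2 fold changes of 0.59 and -0.073 and did not pass.

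**Figure D3:**
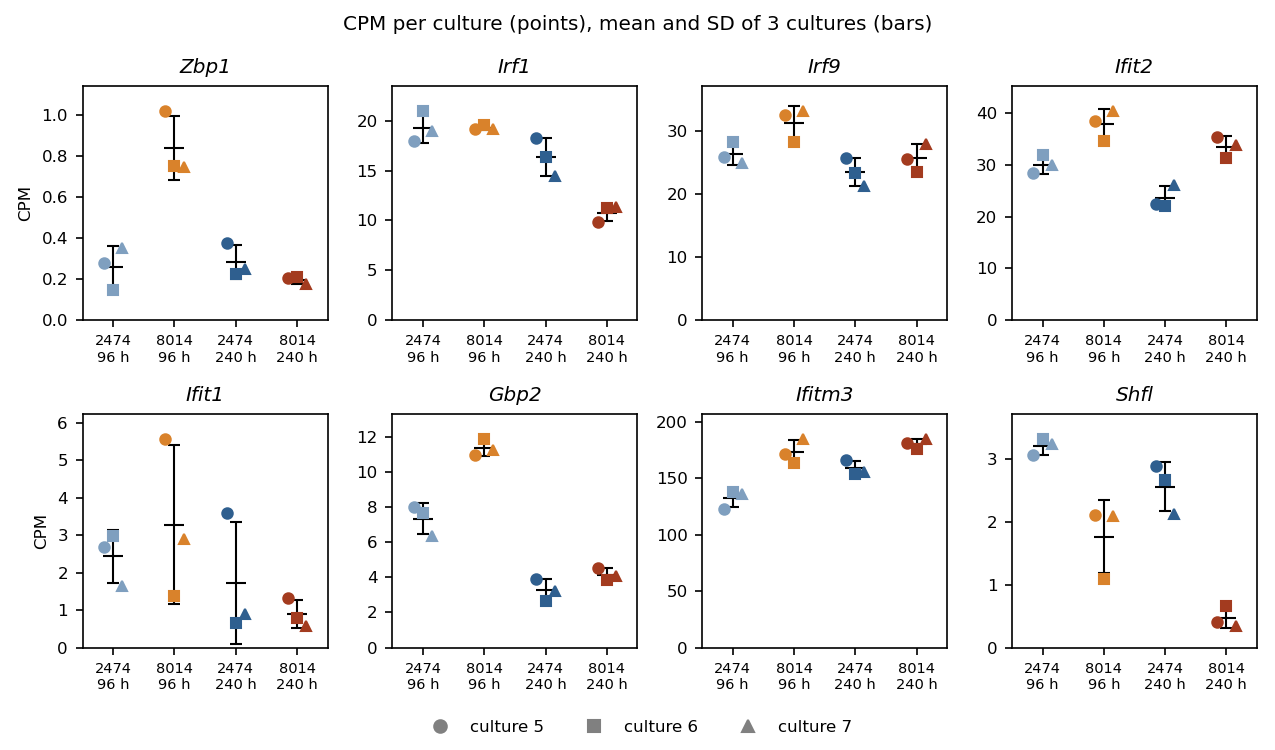
CPM (y axis, from 0) of 8 members in each culture (points, shape by culture number) in the 4 groups (x axis), with the mean and SD of 3 cultures (bars). Gbp2, Ifit2 and Ifitm3 are higher in every WM-8014 96 h culture than in every WM-2474 96 h culture, Ifit1 overlaps between groups, and Shfl is lowest with WM-8014 at 240 h.

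The same comparison was made at 240 h. Members were called in each direction: Ifit2, Ifitm3 and Ddx58 rose and Shfl, Irf1, Oasl2 and Cmpk2 fell. That is 3 of 28 higher and 4 lower, where 21.2% of all genes tested rose and 21.4% fell, so both shares were under the background. The members also had a lower median level (1.09 against 8.71 RPKM) and a wider median spread within groups than all genes. The part of these in the number of calls was not tested. Another 21 members did not pass, and 9 in all had an unadjusted p under 0.05, against 7085 of 14136 over all genes. The median log2 fold change was -0.082, against 0.0051 over all genes. In same-numbered cultures 9, 18 and 17 of 28 members were higher with WM-8014 in cultures 5, 6 and 7. Of all genes 49.8, 50.4 and 50.9% were higher. Without culture 7 in every group, 2 of 27 tested members were called higher and 2 lower, where 2398 of 13964 genes rose and 2343 fell. Without WM-8014 240 h culture 6, where 2559 of 14095 genes rose and 2599 fell, the count was 2 and 2 of 29. Without WM-2474 240 h culture 5, where 2765 of 14096 genes rose and 2994 fell, the count was 6 higher and 2 lower of 29. The members' median was then 0.086. Without culture 5 in every group, where 2430 of 14459 genes rose and 2700 fell, it was 5 and 2 of 29. The members' median was then 0.18. The fit of the 2 groups alone gave 3 higher and 2 lower of 22, where 2859 of 13907 genes rose and 2914 fell. Its median over the members was 0.083, so the sign of the members' median changed between alternatives.

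Ifit2 was higher with WM-8014 at this time too, at 35.5, 31.3 and 33.9 CPM against 22.5, 22.1 and 26.2 CPM with WM-2474. The groups did not overlap (log2 fold change 0.50, SE 0.074, adjusted p = 1.32e-05). Ifitm3 stood at 181.4, 175.9 and 184.6 CPM against 166.6, 154 and 155.9 CPM (log2 fold change 0.18, SE 0.048, adjusted p = 0.00351). The calls for these 2 genes held in all alternatives run. Ddx58 rose from 30.8, 25.4 and 26.9 CPM to 28.7, 32.1 and 34.2 CPM, but in culture 5 it was lower with WM-8014. Its call (log2 fold change 0.21, SE 0.079, adjusted p = 0.0385) was lost in 11 of 22 alternatives, among them DESeq2 (adjusted p = 0.0655) and the fit without WM-2474 96 h cultures 6 and 7 together (0.0571). Leaving out WM-2474 240 h culture 6 or 7 gave Ddx58 an adjusted p of 0.182 or 0.112, WM-8014 240 h culture 6 or 7 gave 0.1 or 0.149, and WM-2474 96 h culture 7 gave 0.0505.

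Shfl had the largest fall. It stood at 2.90, 2.67 and 2.13 CPM with WM-2474 (54, 60 and 43 reads) and at 0.404, 0.657 and 0.346 CPM with WM-8014 (4, 19 and 6 reads). The groups did not overlap, and the same-numbered cultures differed by -2.57, -1.87 and -2.32 log2 units. With WM-8014 the fitted level was 4.96-fold lower (-2.31 on the log2 scale, SE 0.28, adjusted p = 1.03e-06). Shfl lies on chromosome 9 (20868635 to 20874307). Of the tested genes reported here from beside it, chosen after the Shfl values were seen, Col5a3 (-0.98), Ppan (-0.31) and Eif3g (-0.11) also fell at 240 h, and Olfm2 and Angptl6 did not pass. Irf1, a transcription factor for both kinds of interferon response, fell from 18.3, 16.4 and 14.5 CPM to 9.79, 11.2 and 11.3 CPM. No WM-8014 culture reached the lowest control (log2 fold change -0.58, SE 0.091, adjusted p = 2.31e-05). The Shfl and Irf1 calls held in all alternatives run.

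Oasl2 and Cmpk2 fell at the edge of detection. Oasl2, which encodes a relative of the OAS enzymes, was at 1.18, 0.400 and 0.693 CPM (22, 9 and 14 reads) with WM-2474 and at 0.101, 0.173 and 0.346 CPM (1, 5 and 6 reads) with WM-8014. The highest WM-8014 culture was just below the lowest control (log2 fold change -1.76, SE 0.58, adjusted p = 0.0196). The Oasl2 call was lost without WM-2474 240 h culture 5 (adjusted p = 0.0936), without WM-8014 240 h culture 5 (0.0515) or 6 (0.113), and without culture 5 (0.185) or 7 (0.0509) in every group. Cmpk2, which encodes a mitochondrial nucleotide kinase, had 9, 8 and 9 reads with WM-2474 (0.482, 0.356 and 0.446 CPM) and 2, 4 and 3 reads with WM-8014 (0.202, 0.138 and 0.173 CPM). The groups did not overlap, but the result (log2 fold change -1.37, SE 0.50, adjusted p = 0.0328) rests on these few reads, and the call was lost in 10 of 21 alternatives. Among them Cmpk2 had an adjusted p of 0.0901 with DESeq2, 0.0507 with no filter, 0.0765 or 0.0725 without WM-2474 240 h culture 5 or 7, and 0.155 or 0.0618 without WM-8014 240 h culture 6 or 7.

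The genes next in order at 240 h did not pass. Ifit3 was at 3.43, 2.36 and 2.13 CPM with WM-2474 and under WM-8014 at 4.64, 3.35 and 4.56 CPM, higher in each same-numbered culture (log2 fold change 0.62, adjusted p = 0.0857). With the replicate block Ifit3 passed (adjusted p = 0.0013), as did Gbp3 (0.0489). Several other alternatives gave Ifit3 a call, including DESeq2 (adjusted p = 0.0421) and the fit without WM-2474 240 h culture 5 (0.037), WM-8014 96 h culture 5 (0.0239) or WM-8014 96 h culture 6 (0.0319). Gbp2 had a log2 fold change of 0.33 (95% interval 0.0032 to 0.66, adjusted p = 0.0964) and Gbp3 of 0.82 (-0.061 to 1.70, adjusted p = 0.126). Without WM-2474 240 h culture 5 the adjusted p was 0.0284 for Gbp2 and 0.029 for Gbp3. Irf9 (0.12, adjusted p = 0.244) and Ifit1 (-0.996, 95% interval -2.96 to 0.97, adjusted p = 0.392) were further from the threshold, and the interval of Ifit1 allows large changes either way. Without WM-2474 240 h culture 5, its highest 240 h library, the Ifit1 value was 0.086 (adjusted p = 0.943), and the Irf9 value was -0.014 without culture 7 in every group (0.923).

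**Figure D4:**
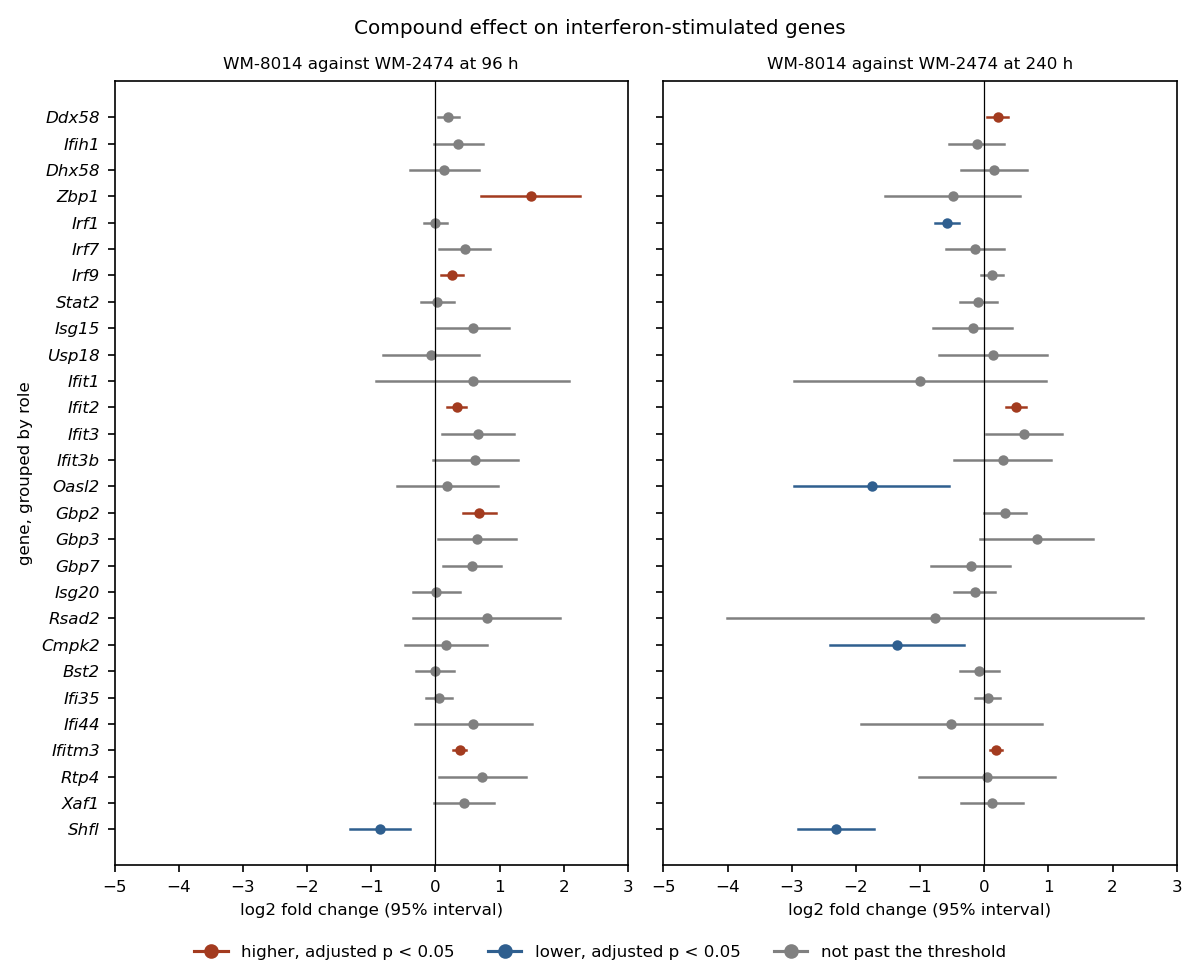
Log2 fold change of WM-8014 against WM-2474 (x axis) with its 95% interval for the 28 tested members (y axis, by role) at 96 h (left) and 240 h (right), coloured by call. At 96 h 25 points lie above 0 and 6 are called, and at 240 h the points lie on either side of 0, with Shfl at -2.31 and 7 called.

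The difference between the compound effects at the 2 times was tested as an interaction. Zbp1, Irf1 and Shfl passed, all with a more negative effect at 240 h, which is 0 of 28 members in the positive and 3 in the negative direction, where 5.15 and 5.53% of all genes passed. The sign of the interaction was negative in 23 of 28 members and in 7206 of 14136 genes. The median was -0.34, against -0.0042 over all genes. An unadjusted p under 0.05 was reached by 8 members and by 3305 of the genes. The interaction was -1.98 for Zbp1 (SE 0.63, adjusted p = 0.0467), -0.58 for Irf1 (SE 0.13, adjusted p = 0.00372) and -1.44 for Shfl (SE 0.38, adjusted p = 0.0156). For Irf1 the compounds did not separate at 96 h (19.2, 19.6 and 19.2 CPM with WM-8014 against 17.9, 21.0 and 19.0 CPM) and did at 240 h. Zbp1 was at 0.202, 0.208 and 0.173 CPM with WM-8014 and at 0.375, 0.222 and 0.248 CPM with WM-2474 at 240 h, on 2 to 7 reads each. Its interaction lost its call in 17 of 19 alternatives, with adjusted p up to 0.294, and when any 1 of 11 of the 12 libraries was left out. It held only with size factors, and without WM-2474 96 h culture 7 among single libraries. The Irf1 interaction was lost without culture 5 in every group (0.0738). For Shfl it was lost without culture 5 (0.192) or 7 (0.145) in every group, without WM-8014 96 h culture 5 (0.0542) or 7 (0.0531), when thinned to equal depth (0.0537), and without WM-2474 96 h cultures 6 and 7 together (0.0921). Without culture 5 in every group 0 of 29 members passed in edgeR, with 4 at an unadjusted p under 0.05. Of 14459 genes in that fit 885 passed, with 2823 under 0.05. DESeq2 on all libraries gave 2 members and 1268 genes. The count of members was 1 without culture 7 in every group or without WM-8014 96 h culture 5 or 7. It was 5 without WM-8014 96 h culture 6. Over all genes these 4 fits gave 867, 1257, 1321 and 1303 in the same order.

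Change over time was compared under each compound. It covers ageing in culture as well as exposure, which cannot be told apart. The 2 time comparisons do not share libraries with each other, but each shares its libraries with the compound comparisons. Under WM-2474, 9 of 28 members fell and 3 rose from 96 to 240 h, where 19.1% of all genes fell and 19.8% rose. Under WM-8014, 18 of 28 fell and 1 rose, where 25% of all genes fell and 24.8% rose. The median log2 change was -0.39 and -0.87, against -0.014 and -0.017 over all genes. In same-numbered cultures 5, 6 and 7, members were lower at 240 h in 14, 23 and 25 of 28 cases under WM-2474. Under WM-8014 they were lower in 25, 21 and 24. Of all genes 49.8, 49 and 47.8% were higher at 240 h under WM-2474, and 48.4, 49 and 48.4% under WM-8014. All 3 cultures were lower at 240 h for 14 members under WM-2474 (31.8% of all genes) and 21 under WM-8014 (35.5%). Calls over all genes under WM-2474 numbered 5497, and 3750 after thinning to equal depth. Without culture 7 or 6 in every group they numbered 3816 and 4116, and 4677 without WM-2474 240 h culture 6. The WM-2474 count of members was sensitive to depth and libraries. It was 4 members without the 96 h cultures 6 and 7 together, 5 after thinning to equal depth, 5 without culture 7 in every group, and 7 without culture 6 in every group or without WM-2474 240 h culture 6. When these 96 h cultures were left out together, the calls for Irf1 (adjusted p = 0.566), Ifit2 (0.137), Gbp7 (0.112), Rsad2 (0.475), Cmpk2 (0.197), Rtp4 (0.438), Isg20 (0.602) and Ifi35 (0.351) were lost. Markers of other cell types moved over the same time: 6 endothelial markers, with Cldn5 at 0 reads, summed to 5.86 to 7.60 CPM at 96 h and 2.31 to 3.12 CPM at 240 h under WM-2474, and to 3.89 to 5.89 and 2.42 to 2.66 CPM under WM-8014. The 4 that could be tested fell under each compound, though under WM-2474 2 of them passed when the 96 h cultures 6 and 7 were left out together. Epithelial markers (6 genes, 2 tested) summed to 20.3 to 27.8 CPM at 96 h and 12.1 to 13.9 CPM at 240 h under WM-2474, where both fell, and to 18.6 to 20.7 and 13.1 to 16.9 CPM under WM-8014, where 1 fell. Of 10 fibroblast markers 7 rose and 1 fell under each compound. They summed to 23250 to 26760 CPM at 96 h and 38090 to 39420 CPM at 240 h under WM-2474, and to 25480 to 28320 and 38220 to 40030 CPM under WM-8014. The part of these markers in the members' falls was not tested.

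All 3 guanylate-binding genes fell under either compound. Gbp2 went from 7.98, 7.67 and 6.33 to 3.91, 2.62 and 3.22 CPM under WM-2474 (log2 change -1.13, SE 0.14, adjusted p = 1.49e-06) and from 10.9, 11.9 and 11.2 to 4.54, 3.84 and 4.04 CPM under WM-8014 (-1.48, SE 0.14, adjusted p = 7.78e-09). No 240 h culture reached any 96 h culture of the same compound. Gbp3 fell by 1.57 and 1.40 log2 units under WM-2474 and WM-8014 (adjusted p = 0.00187 and 0.00138), and Gbp7 by 0.99 and 1.77 (adjusted p = 0.00315 and 6.57e-06). Under WM-2474 the fall of Gbp7 lost its call without culture 7 in every group (adjusted p = 0.0781) and without the 96 h cultures 6 and 7 together (0.112), and that of Gbp3 without culture 7 in every group (0.0677) and when thinned to equal depth (0.0641).

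The STAT complex and its factors also fell. Stat2 went from 61.8, 68.7 and 67.1 to 44.8, 36.0 and 36.6 CPM under WM-2474 (log2 change -0.76, SE 0.12, adjusted p = 0.00058) and from 69.6, 56.1 and 76.6 to 37.9, 33.9 and 39.1 CPM under WM-8014 (-0.88, SE 0.12, adjusted p = 0.000193). Under each compound all 3 late cultures lay below all 3 early ones. Irf1 fell by 0.82 log2 units under WM-8014 (adjusted p = 1.83e-07) and by 0.24 under WM-2474 (adjusted p = 0.0279), the latter call being lost in 9 of 22 alternatives, such as DESeq2 (0.063) and leaving out the 96 h WM-2474 library of culture 6 (0.124) or 7 (0.0644), or the 240 h WM-2474 library of culture 6 (0.0635) or 7 (0.171). Under WM-8014 Irf7 fell by 0.98 (adjusted p = 0.000576) and Irf9 by 0.30 (adjusted p = 0.00547), and under WM-2474 their log2 changes of -0.38 and -0.16 did not pass. The difference between the time changes is the interaction, which did not pass for Irf7 (-0.60, adjusted p = 0.213) or Irf9 (-0.14, adjusted p = 0.526). The Irf9 fall was lost without WM-8014 240 h culture 6 (0.0568).

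Rsad2, the radical enzyme viperin that makes a chain-terminating nucleotide, had the largest fitted changes. Under WM-8014 it had 20, 3 and 12 reads at 96 h (1.36, 0.205 and 0.812 CPM) and 1, 1 and 0 reads at 240 h. The 35 reads against 2 give a ratio of 22.3, with an exact 95% interval of 5.72 to 191 for counting error alone, and the adjusted p was 0.0012. Under WM-2474 it had 3, 9 and 21 reads at 96 h and 0, 0 and 4 at 240 h (log2 change -2.68, adjusted p = 0.0205). That call was lost without any 1 of 4 WM-2474 libraries, the 96 h cultures 6 (adjusted p = 0.0524) and 7 (0.0715) and the 240 h cultures 5 (0.0654) and 6 (0.0835). Cmpk2, which lies beside Rsad2 on chromosome 12, fell by 2.55 log2 units under WM-8014 (adjusted p = 5.94e-05) and by 1.02 under WM-2474 (adjusted p = 0.0196), the latter lost without the 96 h (0.0702) or 240 h (0.084) WM-2474 library of culture 6.

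Of the sensors, Ifih1 fell by 0.93 (adjusted p = 0.000596) and Zbp1 by 2.06 (adjusted p = 0.000356) under WM-8014, and neither passed under WM-2474 (log2 changes -0.45 and -0.087). Oasl2 fell by 2.56 (adjusted p = 0.000663) and Shfl by 1.78 (adjusted p = 8.2e-05) under WM-8014, with log2 changes of -0.61 and -0.33 under WM-2474 that did not pass. The interaction was called for Zbp1 and Shfl, and not for Ifih1 (-0.48, adjusted p = 0.311) or Oasl2 (-1.94, adjusted p = 0.0864). Isg15 fell by 0.86 under WM-8014 (adjusted p = 0.0168), from 3.46, 2.18 and 2.50 to 1.51, 1.31 and 1.73 CPM. That fall was lost without WM-8014 96 h culture 5 (0.107) or 240 h culture 6 (0.096). Rtp4, a chaperone that restrains the response, fell under WM-8014 (-2.02, adjusted p = 0.000276) and WM-2474 (-1.33, adjusted p = 0.0129). The latter call was lost without WM-2474 96 h culture 7 (0.113). Rtp4 shares 11.6% of its 50-base words with the overlapping gene model Gm45338. Ifi44 fell under WM-8014 (-2.09, adjusted p = 0.00412) and lost its call without WM-8014 240 h culture 6 (0.0689).

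Ifit2 fell under WM-2474 (-0.35, adjusted p = 0.000606) and under WM-8014 (-0.19, adjusted p = 0.0348), and the difference between these changes is the interaction, 0.16, which did not pass (adjusted p = 0.374). The fall under WM-8014 was lost without WM-8014 96 h culture 5 (0.091) or 7 (0.166) or 240 h culture 6 (0.204). Bst2 fell by 0.37 under WM-8014 (adjusted p = 0.0437), a call lost in 10 of 22 alternatives. Among them Bst2 had an adjusted p of 0.138 or 0.155 without WM-8014 96 h culture 5 or 7, 0.11 or 0.14 without WM-8014 240 h culture 5 or 6, 0.0502 without WM-2474 96 h culture 5 and 0.0532 without WM-2474 240 h culture 6. Ifit1 (-1.98, adjusted p = 0.0697) and Ifit3b (-0.79, adjusted p = 0.056) did not pass under WM-8014, nor did Xaf1 (-0.38), Usp18 (-0.46) or Dhx58 (0.046). A few members rose over time. Ifitm3 rose under WM-2474 (0.26, adjusted p = 0.00022) and had a change of 0.060 under WM-8014 (adjusted p = 0.319), and the interaction of -0.20 did not pass (adjusted p = 0.0675). Isg20 rose under WM-2474 from 4.27, 3.18 and 3.34 to 4.34, 5.51 and 5.05 CPM (0.51, adjusted p = 0.0119), a call lost without WM-2474 96 h culture 7 (0.104) or 240 h culture 6 (0.0695). Ifi35 rose by 0.25 under each compound (adjusted p = 0.0385 and 0.0418), calls lost in 12 and 11 of 22 alternatives. Under WM-2474 the Ifi35 call was lost without any 1 of the 6 WM-2474 libraries (adjusted p up to 0.1), and under WM-8014 without WM-2474 96 h cultures 6 and 7 together (0.0577), and without 96 h WM-8014 culture 6 (0.311) or 7 (0.074) or any 240 h WM-8014 culture (0.0747, 0.0665 and 0.0875). In the annotation 16.8% of the exonic bases of Ifi35 overlap the opposite-strand gene Gm11626.

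**Figure D5:**
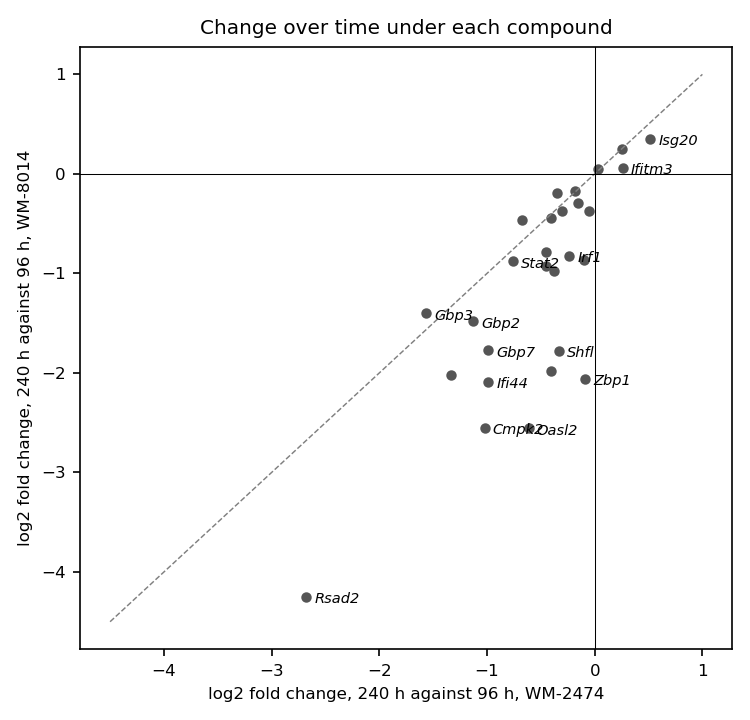
Log2 fold change from 96 to 240 h under WM-2474 (x axis) and under WM-8014 (y axis) for the 28 tested members (points), with the line of equal change dashed. Most points lie below 0 on each axis, 24 of 28 under either compound, and Rsad2 has the lowest fitted value on each axis.

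The rest of the pathway was described from gene lists chosen for their known roles, with earlier results of these data known. Each list was also tested without WM-2474 96 h cultures 6 and 7 together, an alternative chosen after seeing the data. That left the count of each of these lists at 240 h as it was, while at 96 h the calls over all genes went from 1544 higher and 1674 lower to 432 and 437. Of 10 tested receptor and signalling genes, 3 rose and 0 fell at 96 h, where 10.9% of all genes rose and 11.8% fell, and 4 rose and 1 fell at 240 h, where 21.2 and 21.4% did. Jak1, the kinase shared by interferon receptors, rose from 310.8, 315.7 and 319.2 to 384, 396.2 and 415.9 CPM at 96 h (log2 fold change 0.34, adjusted p = 1.69e-06), with the groups well apart, and by 0.23 at 240 h (adjusted p = 2.45e-05). Tyk2 rose at each time (0.18 and 0.19, adjusted p = 0.0318 and 0.0117), though at 96 h its log2 fold change was 0.0047 without that pair of cultures (adjusted p = 0.985). Stat3 rose at each time too (0.15 and 0.10, adjusted p = 0.00609 and 0.0287), and Ifngr2, a chain of the interferon gamma receptor, rose at 240 h (0.24, adjusted p = 3.15e-05). Ifnar1 fell slightly at 240 h (-0.11, adjusted p = 0.0233) and had a log2 fold change of -0.0076 at 96 h. Neither Ifnar2 (0.14 at 96 h and -0.066 at 240 h) nor Irf3 (-0.044 and -0.10) passed at either time.

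Among 16 genes that sense nucleic acid or bacterial products and signal to interferon, 7 rose and 1 fell at 96 h, against 10.9 and 11.8% of all genes, and 6 rose and 2 fell at 240 h, against 21.2 and 21.4%. Without the pair of cultures 1 rose and 0 fell at 96 h. Tlr4, the receptor for bacterial lipopolysaccharide, rose from 16.3, 14.2 and 13.6 to 21.5, 19.98 and 21.8 CPM at 96 h (log2 fold change 0.55, adjusted p = 0.000107) and by 0.95 at 240 h (adjusted p = 2.63e-08). Ikbke, a kinase that activates IRF3, rose by 0.45 and 0.51 (adjusted p = 0.000226 and 7.35e-06). Sting1 (0.23, adjusted p = 0.00632) and Tlr3 (0.65, adjusted p = 0.0083) rose at 96 h, and Mavs, the adaptor of RIG-I, rose at 240 h (0.27, adjusted p = 0.000639). Cgas, the DNA sensor upstream of STING, fell at 96 h (-0.49, adjusted p = 0.0345) and at 240 h (-0.77, adjusted p = 0.000476). At 96 h the calls of Tlr4 (adjusted p = 0.0964 without the pair), Ikbke (0.0639), Sting1 (0.0663), Tlr3 (0.463) and Cgas (0.253) were lost. Of 13 repressors of the response, 2 rose and 1 fell at 96 h, shares near the 10.9 and 11.8% of all genes, and 0 rose or fell without the pair. At 240 h 1 rose and 5 fell, against 21.2 and 21.4%. Trim28, a corepressor that silences retroelements, fell by 0.17 and 0.39 (adjusted p = 0.000748 and 6.28e-09, the former 0.0722 without the pair), and Setdb1, the histone methyltransferase it recruits, by 0.21 at 240 h (adjusted p = 0.000966).

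A further list of 46 interferon-stimulated genes that are not among the 34 had 35 tested. At 96 h 14 rose and 1 fell, against 10.9 and 11.8% of all genes, and their median was 0.22 (log2), but without the pair of cultures 5 rose and 0 fell. At 240 h 7 rose and 9 fell, at a median of 0.045, shares near the 21.2 and 21.4% of all genes. Over time 23 of the 35 fell and 4 rose under WM-8014, against 25 and 24.8% of all genes. Under WM-2474 10 fell and 2 rose, against 19.1 and 19.8%, and 2 fell and 1 rose without the pair. Ifi204, a DNA-binding protein of the p200 family, rose from 7.43, 8.03 and 7.54 to 13.2, 12.6 and 14.5 CPM at 96 h (log2 fold change 0.81, adjusted p = 1.68e-05), and no WM-8014 culture, culture 6 included, lay near the controls. Lgals3bp, a secreted glycoprotein, rose by 0.83 and 0.88 (adjusted p = 0.000133 and 8.3e-06), Ifi30, a lysosomal reductase, by 0.34 and 0.32 (adjusted p = 0.000631 and 0.000134), Ifitm2 by 0.22 at 96 h (adjusted p = 0.000789) and Ifi27 by 0.74 at 240 h (adjusted p = 7.27e-06). Ly6e fell by 0.21 at 240 h (adjusted p = 0.000394). Without the pair the 96 h calls of Ifi30 (adjusted p = 0.0573) and Ifitm2 (0.0622) were lost, and those of Ifi204 (0.0111) and Lgals3bp (0.0184) held.

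Interferon also induces genes of class I antigen presentation. Of 11 tested, 5 rose and 2 fell at 96 h, against 10.9 and 11.8% of all genes, and 2 rose and 2 fell without the pair of cultures. At 240 h 4 rose and 2 fell, against 21.2 and 21.4%, and the share that fell was near that of all genes. The 2 that fell were heavy chains that present peptides. H2-K1 went from 40.7, 38.3 and 38.4 to 26.6, 24.1 and 22.5 CPM at 96 h (log2 fold change -0.68, adjusted p = 1.03e-06) and from 27.6, 24.9 and 27.4 to 14.9, 13.6 and 15.5 CPM at 240 h (-0.87, adjusted p = 5.92e-09). H2-D1 fell by 0.42 and 0.28 (adjusted p = 0.000127 and 0.0014). The 96 h calls of H2-K1 (adjusted p = 0.000711), H2-D1 (0.0224), Erap1 (0.00564) and Tapbp (0.0232) held without the pair. In neither comparison did the H2-K1 cultures overlap between compounds. Genes that trim and load the peptides were among those that rose. Erap1, a trimming peptidase, rose by 0.67 at 96 h (adjusted p = 2.15e-06), Tapbp, the tapasin of the loading complex, by 0.34 and 0.30 (adjusted p = 0.000628 and 0.000548), and Tap1, a peptide transporter, by 0.54 at 240 h (adjusted p = 0.00599). Reads of H2-K1 and H2-D1 could have been shared with their near copies, and the split between them is uncertain.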

How the data were processed

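Messenger RNA of 12 fibroblast libraries was sequenced with a kit that keeps strand, per the labels' protocols. The submitters describe the cultures as biological replicates. The authors deposited raw counts per Entrez gene, made with featureCounts for genome build mm10, according to the submitters' processing notes. Aligner, annotation and strand setting were not given in the sources used here. Deposited gene lengths served only for RPKM. Symbols came from RefSeq GRCm38.p6 (25275 of 27179 identifiers matched).

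Counts were tested in R 4.3.3 with edgeR 4.0.16: filterByExpr by group (14136 genes kept), TMM, 4 group means over 12 libraries, robust quasi-likelihood F tests, two-sided, and Benjamini-Hochberg adjustment over all genes tested, with a threshold of 0.05. Standard errors were derived from the fold change and F. Replicates differed by more than sampling noise (chi-square per degree of freedom 2.1 to 7.13). Same-numbered cultures deviated together over all genes at 96 h (correlations 0.14, 0.15 and 0.16) and less evenly at 240 h (0.064, 0.24 and 0.048). The main tests did not treat them as paired, and differences between same-numbered cultures are given as a description. Alternatives were DESeq2 1.42.0, its size factors, no filter, a replicate block, thinning to equal depth, the 2 groups alone, and leaving out libraries.

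Members and lists were chosen with earlier results of these data known. Named by rule are members called in any comparison, the 5 with the smallest p per compound comparison, Ifnar1, Ifnar2, Irf3, Ifnb1, and up to 4 called genes per other list with the smallest p. The remaining members were named after their values were seen. The rule for printed promoters (called between compounds, ISRE core before the start) gave only Gbp2, and the others were added after the values were seen. Some genes covered by these rules are not reported here.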

Additional observations from a re-analysis of the deposited data

Results flagged for a closer look

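The compound effect (WM-8014 against WM-2474, log2) differed between 96 and 240 h by a test of the difference itself in 3 of 28 members. Over all genes, 1510 of 14136 passed the same test, a share near that of the members. For Irf1 the effect was 0.0012 at 96 h and -0.58 at 240 h, a difference of -0.58 (edgeR, adjusted p = 0.00372). For Shfl it was -0.87 and -2.31, a difference of -1.44 (adjusted p = 0.0156), so the fall was in the same direction at each time. For Zbp1 it was 1.49 and -0.49, a difference of -1.98 (adjusted p = 0.0467, and 0.0636 with the replicate block), on 2 to 17 reads per library. Of these 3 calls none held in all alternatives run.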

How the results depend on the processing

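No called member changed direction, in the alternatives run, in the comparison in which it was called. Among uncalled members at 240 h, Ifit1 went from -0.996 to 0.086 and Irf9 from 0.12 to -0.014 with cultures left out. The number of members called at 96 h was 6; it was 3 after thinning to equal depth, 2 without WM-2474 96 h cultures 6 and 7 together, and 4 to 13 when single libraries or culture numbers were left out. At 240 h it was 7, and 4 to 8 with replicates left out (over all genes 6027, and 4354 to 6089). For the interaction it was 3, and 0 to 5. For time under WM-2474 it was 12, then 5 after thinning, 4 without that pair, and 5 to 14 with replicates left out. For time under WM-8014 it was 19, and 14 to 25 (over all genes 7031, and 5470 to 7119). With the replicate block the counts were 8, 9, 3, 15 and 19. Calls that held in all alternatives run were 1 of 6 at 96 h (Ifitm3), 4 of 7 at 240 h (Ifit2, Ifitm3, Irf1 and Shfl), 0 of 3 for the interaction, 3 of 12 for time under WM-2474 (Gbp2, Ifitm3 and Stat2) and 13 of 19 under WM-8014. Over all genes, 3218 were called at 96 h, 1877 after thinning, 869 without that pair, and 1750 to 3392 with replicates left out. For the interaction 1510 were called over all genes, 798 after thinning, 586 without that pair and 724 to 1603 with replicates left out, and for time under WM-2474 5497 and, without that pair, 2710. Thinning removes reads and leaving out libraries removes samples; other causes were not tested. Depth limits members with few reads, such as the OAS and Mx genes, Rsad2, Zbp1, Ifi44 and Cmpk2.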
